A study of Mus musculus with 16 samples.

Results

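The shortest EU labelling step of a nascent RNA series in mouse embryonic stem cells was examined, comparing Mettl14 conditional knockout (CKO) cells with Control cells after 10 min of 5-ethynyl uridine (EU). It was chosen by genotype and labelling time in the sample titles, and comprised 4 of the 16 libraries, 2 of CKO and 2 of Control. Cells of all groups were C57BL/6 embryonic stem cells grown in serum with LIF at 1000 U/ml, CHIR99021 at 3 µM and PD0325901 at 1 µM. EU was given at 0.5 mM, 48 h after seeding, for 10, 20, 30 or 60 min before harvest. The labels do not say how or when Mettl14 was deleted in CKO cells, whether 1 line or several were used, or whether replicate libraries stem from different cultures, and they mention 8 plates seeded to equal cell amounts. The p-values below therefore measure only the spread between these libraries, which may be technical.

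METTL14 pairs with METTL3 in a nuclear writer complex that places methyl groups on adenosines of messenger RNA. METTL3 carries the catalytic activity and METTL14 helps to bind the RNA substrate. EU is a uridine analogue that cells build into RNA as it is transcribed, so that RNA made during the pulse can be captured by click chemistry. After a short pulse the captured RNA lies close to synthesis, and with longer pulses stable RNAs accumulate while short-lived precursors turn over. CHIR99021 inhibits GSK3 and PD0325901 inhibits MEK, and with LIF they hold mouse embryonic stem cells in the naive pluripotent state.

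The files give counts for 54446 Ensembl mouse gene identifiers and 92 ERCC species, synthetic RNAs added in equal volume (0.01 µl) to each sample before library construction. They pair no identifier with a symbol, and 0 identifiers matched the gene table at hand. The level of Mettl14, which would check the genotype labels, and the markers of embryonic stem cells and of other cell types were not analysed here. Genes are therefore described as classes of identifiers, and 4 of them by identifier. CKO libraries of 10 min held 11902184 and 13144401 mouse counts, against 13317010 and 14879856 in Control. CKO libraries detected 21173 and 21821 identifiers, against 22029 and 22186 in Control. The counts of the replicates differed by more than sampling noise in both groups. The CKO 30 min libraries stood apart from the rest, with 5188643 and 5109162 mouse counts and 30583 and 31826 identifiers detected, and the 30 min libraries were left out of the tests below unless stated.

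The libraries of 10 min were less precise than those of the longer pulses. Among 9283 identifiers with a mean of at least 10 counts per 1e6 mouse counts (CPM) over the 12 libraries of 10, 20 and 60 min, the median absolute log2 difference between replicates was 0.218 in CKO and 0.177 in Control at 10 min. It was 0.0881 in CKO and 0.0953 in Control at 20 min, and 0.144 in CKO and 0.0669 in Control at 60 min. The main test estimates 1 spread per identifier over all these groups, so the number of calls at 10 min is also given from the 4 libraries of 10 min fitted alone.

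Captured mouse RNA per spike-in was higher in CKO cells after 10 min of EU. The CKO libraries had 28.6 and 34.3 mouse counts per ERCC count, and the Control libraries had 11.6 and 12.3. The groups did not overlap, with means of 31.4 ± 4.05 in CKO and 11.9 ± 0.499 in Control (SD, n = 2 each). The difference was 1.40 on the log2 scale (SE 0.14), or 2.63-fold. With 2 libraries against 2, the exact two-sided permutation test gave p = 0.333, which is the smallest it can give. ERCC counts made up 3.38% and 2.83% of all counts in CKO, against 7.97% and 7.54% in Control. The spike-in was added before library construction, so cell number, RNA recovery, capture yield and labelled RNA per cell cannot be told apart in this ratio. In these bulk samples, fewer cells of a type and less RNA per cell cannot be told apart for any single gene either.

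The difference was shared by most spike-in species. Of the 36 ERCC species with at least 100 counts in each library of 10 min, which held 99.8% of the ERCC counts, 35 put CKO output above Control. Their log2 differences had a median of 1.48, quartiles of 1.13 and 1.68, and a range of −0.42 to 2.02. The other EU times had smaller differences, 0.40 (SE 0.01) at 20 min, −0.40 (SE 0.39) at 30 min and 0.09 (SE 0.14) at 60 min.

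**Figure D1:**
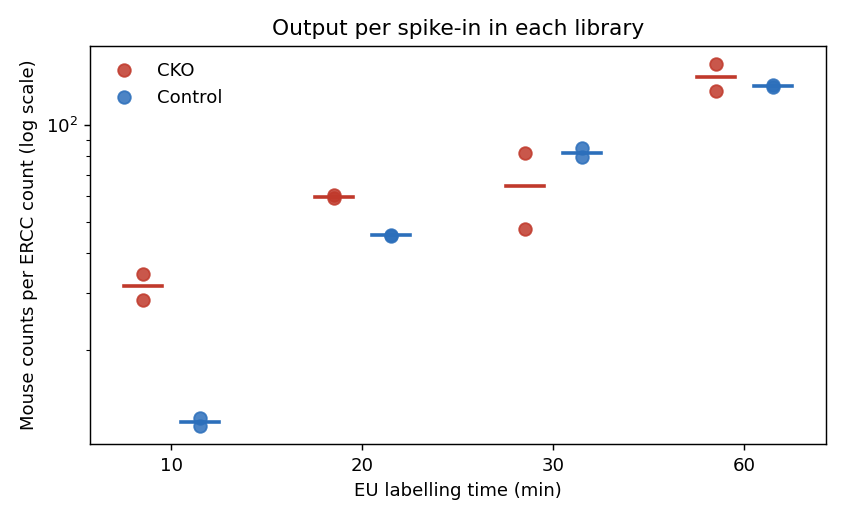
Mouse counts per ERCC count (log scale) in each library by EU labelling time in min, with CKO in red and Control in blue; each point is 1 library and each bar the mean of 2. At 10 min the CKO libraries lie at 28.6 and 34.3 and the Control libraries at 11.6 and 12.3.

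Relative levels, the share of each identifier in its library, changed in both directions at 10 min. With TMM scaling of the mouse counts, 2197 of 20204 identifiers tested (10.9%) were called higher in CKO and 2404 (11.9%) lower, 22.8% in all (edgeR quasi-likelihood test, Benjamini-Hochberg adjusted p below 0.05). Fitted alone, the 4 libraries of 10 min gave 988 of 17039 identifiers (5.80%) higher in CKO and 692 (4.06%) lower, 1680 in all (9.86%). Of these 1680, 1656 were also called with the 12 libraries, all 1656 with the same sign. The median log2 fold change of all identifiers tested was −0.03.

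The changes were mostly of moderate size. Among the 9354 identifiers with a mean of at least 10 CPM in the 4 libraries, 1706 (18.2%) were called higher and 1733 (18.5%) lower. The called ones had a median fold of 1.61 upward and 1.49 downward. At least 2-fold changes numbered 357 upward and 164 downward, and at least 4-fold changes 13 and 7. At lower levels larger fitted changes were common. Of all calls, 827 upward and 817 downward were at least 2-fold. No count was seen in either library of the other genotype for 90 of the identifiers called higher and 140 of those called lower, and their fitted fold changes are no estimate of size. In all, 448 identifiers had counts in both CKO libraries and none in Control, and 708 had counts in both Control libraries and none in CKO. These numbered 39 and 74 where at least 10 counts were required in both libraries. Of all 54446 identifiers, 17061 had counts in all 4 libraries and 26538 in none. Both Control libraries held more mouse counts than both CKO libraries, and the part of this in the difference was not tested.

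**Figure D2:**
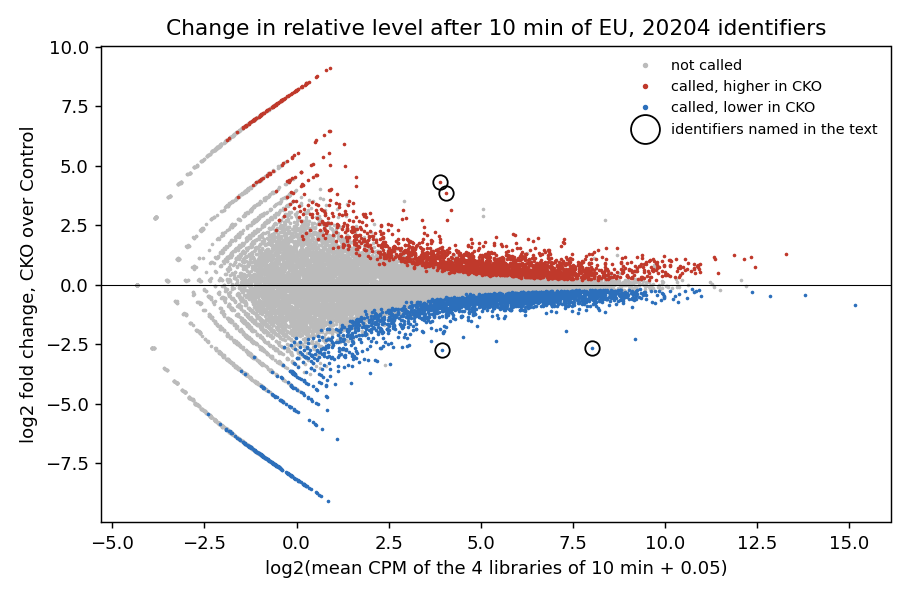
The log2 fold change of CKO over Control at 10 min (vertical axis) against log2 of the mean CPM of the 4 libraries plus 0.05 (horizontal axis); each point is 1 of 20204 identifiers, coloured by call, and circles mark the 4 identifiers named in the text. Calls lie on both sides of 0 over the whole range of levels, and the streaks at low levels are identifiers with few counts or none in 1 genotype.

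A change of 15.3% to 16.3% of all mouse counts separated a CKO library from a Control library at 10 min, measured as the sum of all gains in share. The CKO replicates differed from each other by 7.39% and the Control replicates by 5.15%. The same measure between genotypes was 6.54% to 6.64% at 20 min, where CKO replicates differed by 2.63% and Control replicates by 3.05%. At 60 min it was 6.65% to 10.8%, with 6.59% between CKO replicates and 2.1% between Control replicates. Between the group means of 10 min, 15.1% of the counts changed place. The 126 identifiers with the largest gains held the larger part of the gain in CKO, and the 301 with the largest losses that of the loss. A single identifier made up 14.7% of the loss, and 10 identifiers 18.5% of the gain and 22.9% of the loss.

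That single identifier, the most abundant one in the libraries of 20 and 60 min, took a much smaller share in CKO cells at 10 min. It held 2.77% and 2.32% of the mouse counts in CKO, against 4.67% and 4.85% in Control. The groups did not overlap, and the log2 fold change was −0.87 (SE 0.06, edgeR adjusted p = 1.36e-07). Its log2 fold change was −0.15 at 20 min and 0.18 at 60 min, each with an SE of 0.06. The effect at 10 min differed from the mean of the later ones (edgeR adjusted p = 8.29e-06). Per ERCC count its level was nonetheless 1.40-fold higher in CKO at 10 min.

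The next 9 identifiers by abundance divided into gains and losses. Together they held 6.69% and 6.53% of the counts in CKO, against 5.67% and 5.64% in Control. Those of rank 4, 5, 8 and 9 were called higher in CKO, and those of rank 2, 3 and 6 lower. The rank 4 identifier held 1.53% and 1.30% of the counts in CKO, against 0.595% in both Control libraries, a log2 fold change of 1.29 (SE 0.16, edgeR adjusted p = 0.000464). Ranks 8 and 9 rose by 1.18 and 1.10 on the log2 scale (SE 0.09 and 0.08). The rank 2 identifier held 1.18% and 1.20% in CKO, against 1.68% and 1.65% in Control, a log2 fold change of −0.45 (SE 0.05, edgeR adjusted p = 6.49e-06). Ranks 3 and 6 changed by −0.46 and −0.30.

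The identifiers of ranks 4, 5, 8 and 9 carried neighbouring numbers. All 4 lay between 64000 and 64999 in the numeric part of the Ensembl identifier. The 478 identifiers of this run held 5.07% and 4.45% of the counts in CKO, against 2.53% in both Control libraries, a 1.88-fold difference. This was the largest gain in share among 118 runs of 1000 numbers. Of its 127 members tested, 15 were called higher (11.8%, background 10.9%) and 8 lower (6.30%, background 11.9%), so that higher calls were about as frequent as over all identifiers. The largest loss was in the run from 97000 to 97999, with 3.06% and 2.61% in CKO, against 4.97% and 5.16% in Control, and 92.6% of that run was the most abundant identifier. The next largest gain, from 25000 to 25999, was 3.18% and 3.33% in CKO, against 2.90% and 2.89% in Control. These runs were picked after their values were seen.

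Ranks 11 to 100 together gained share at 10 min, and the summed shares of the ranks below them changed little. The 90 identifiers of ranks 11 to 100 held 12.8% and 13.5% of the counts in CKO, against 11.6% and 11.5% in Control. Of them 35 were called higher and 27 lower, 68.9% against the background of 22.8%. In the top class of abundance described below, with 4041 members, 45.9% were called. With the 4 libraries fitted alone the counts were 34 higher (37.8%, background 5.80%) and 19 lower (21.1%, background 4.06%). The median log2 fold change of these 90 was −0.02, with 43 positive and 47 negative, so the larger share was not a rise of most members. Ranks 101 to 1000 held 31.1% and 31.5% in CKO, against 31.5% and 31.4% in Control, where the groups overlapped. Their median log2 fold change was −0.12, and 544 of the 900 changes were negative (60.4%, background 51.7%). Within these 900 identifiers, 328 were called lower (36.4%, background 11.9%) and 183 higher (20.3%, background 10.9%). Among all identifiers of at least 10 CPM, the main test called 18.5% lower and 18.2% higher. Beside these, the higher calls of ranks 101 to 1000 were about as frequent and the lower calls more frequent. With the 4 libraries alone, 211 were lower (23.4%, background 4.06%) and 158 higher (17.6%, background 5.80%). Ranks 1001 to 5000 held 33.5% and 33.2% in CKO, against 33.8% in both Control libraries.

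Calls became rarer with falling abundance, where the replicates of 10 min also differed more. The median absolute log2 difference between replicates was 0.676 in CKO and 0.615 in Control at 1 to 10 CPM. From 10 CPM it was 0.218 and 0.177. The part of this spread in the falling number of calls was not tested. In 5 classes of abundance formed from the 20 and 60 min libraries, the top class had 4041 members, of which 779 were called higher and 1075 lower (45.9%, against 22.8% of all identifiers tested). The second class had 738 higher and 548 lower calls (31.8%), and the third, near the share over all identifiers, 378 and 367 (18.4%). The fourth class had 179 higher and 272 lower calls (11.2%), and the lowest 123 and 142 (6.56%). The share of the most abundant class was 82.2% and 82.6% in CKO, against 82.8% in both Control libraries.

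Identifiers called different between the genotypes at the longer pulses were called in the same direction at 10 min more often than in the opposite one. They were defined in a separate fit of the 8 libraries of 20 and 60 min, none of which is a library of 10 min. The main calls at 10 min nonetheless take their spread, scaling and count filter from all 12 libraries, these 8 included. The calls of the 4 libraries of 10 min fitted alone do not. Of 1663 identifiers called higher in CKO at 20 or 60 min, 1279 had a positive log2 fold change at 10 min (76.9%, background 48.1%). In the main test 690 were called higher at 10 min (41.5%, background 10.9%) and 97 lower (5.83%, background 11.9%). The 1663 identifiers held 22.1% and 23.5% of the counts in CKO at 10 min, against 18.5% in both Control libraries. Of 1972 identifiers called lower in CKO at 20 or 60 min, 1550 had a negative log2 fold change at 10 min (78.6%, background 51.7%). In the main test 736 were called lower at 10 min (37.3%, background 11.9%) and 49 higher (2.48%, background 10.9%). The 1972 identifiers held 17.3% and 16.5% in CKO, against 21.2% and 21.0% in Control. The median log2 fold changes of these classes at 10 min were 0.43 and −0.31. Among all identifiers of at least 10 CPM, the main test called 18.2% higher and 18.5% lower at 10 min. With the 4 libraries of 10 min alone, the calls among the 1663 were 448 higher (27.5%, background 5.80%) and 29 lower (1.78%, background 4.06%). Among the 1972 they were 332 lower (16.9%, background 4.06%) and 14 higher (0.714%, background 5.80%). A further 49 identifiers had opposite calls at 20 and 60 min, and 24 of them were called lower at 10 min (49.0%, background 11.9%) and 1 higher (2.04%, background 10.9%).

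**Figure D3:**
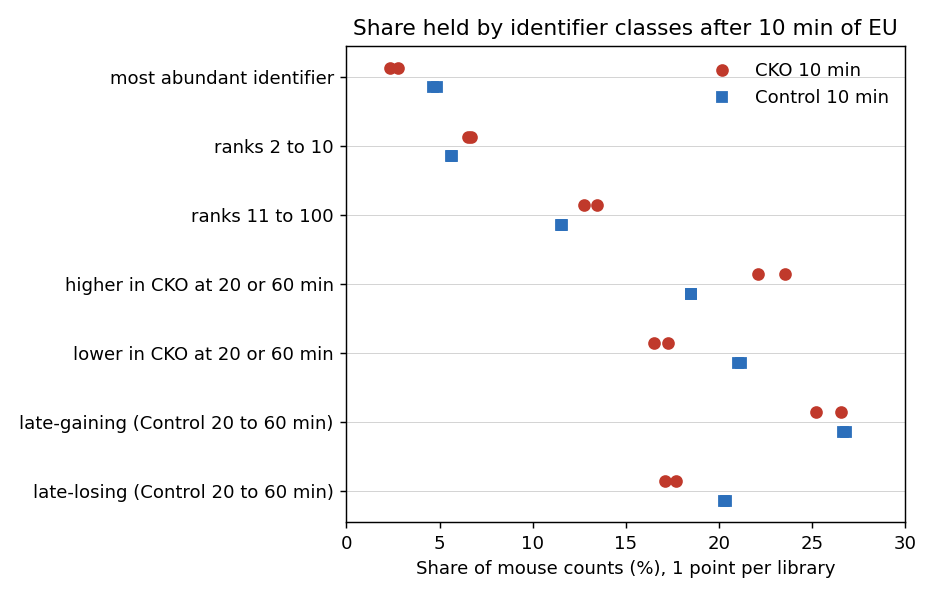
Share of all mouse counts in percent (horizontal axis) held by 7 classes of identifiers in each library of 10 min, with CKO as red circles above Control as blue squares, 1 point per library. The most abundant identifier and the identifiers lower in CKO at 20 or 60 min have smaller shares in CKO, and ranks 2 to 100 and the identifiers higher in CKO at 20 or 60 min larger ones.

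Labelling time itself sorts RNAs, and 2 further classes were drawn from the Control libraries of 20 and 60 min. Late-gaining identifiers, 2709 in number, rose in share between 20 and 60 min of EU in Control cells. Late-losing identifiers, 1497 in number, fell. The late-losing class was less represented in CKO cells at 10 min, at 17.1% and 17.7% of the counts, against 20.3% and 20.4% in Control. Of its members 343 were called lower in CKO (22.9%, background 11.9%) and 143 higher (9.55%, background 10.9%). With the 4 libraries alone these were 125 lower (8.50%, background 4.06%) and 86 higher (5.85%, background 5.80%). Among all identifiers of at least 10 CPM, 18.5% were called lower and 18.2% higher in the main test. The median log2 fold change of the late-losing class was −0.25, with quartiles of −0.69 and 0.18. Without its most abundant member, which is the most abundant identifier described above, the log2 difference in the share of this class was −0.07 in place of −0.22.

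The late-gaining class, as drawn from the Control libraries, changed less in share. It held 26.6% and 25.2% of the counts in CKO, against 26.8% and 26.7% in Control. Of its 2707 members tested, 523 were called lower in CKO (19.3%, background 11.9%) and 362 higher (13.4%, background 10.9%), and the median log2 fold change was −0.05. With the 4 libraries alone, 201 were lower (7.47%, background 4.06%) and 152 higher (5.65%, background 5.80%). Among all identifiers of at least 10 CPM, the main test called 18.5% lower and 18.2% higher. Beside these, the lower calls of the late-gaining class were about as frequent and its higher calls rarer. The log2 difference in the share of the late-gaining class was −0.05, and it was −0.0854 without the first CKO library and −0.0097 without the second. The distance between the classes, the median log2 CPM of late-gaining minus that of late-losing identifiers (pseudocount 0.5), was 1.61 in both CKO libraries of 10 min, against 1.35 and 1.32 in Control. In Control cells it was 1.68 and 1.65 at 20 min and 3.03 and 3.07 at 60 min. The Control libraries of 20 and 60 min chose these classes, so their own distances are partly set by that choice. The CKO libraries of 10 min lay above the Control libraries of 10 min on this measure, neither of which chose the classes. They lay below the Control libraries of 20 min, which did. In CKO cells the distance was 1.91 and 1.85 at 20 min, above both Control libraries of that pulse. Since those Control libraries chose the classes, no conclusion is drawn from this. At 60 min the distance was 3.01 and 3.02 in CKO. The contrast in share depended on the genotype that defined the classes. When drawn from the CKO libraries of 20 and 60 min, the late-gaining class had 1952 identifiers. It held 21.1% and 21.5% of the counts in CKO at 10 min, against 23.8% and 23.7% in Control. The late-losing class so drawn held 12.6% and 11.9%, against 15.1% and 15.2%. Without their most abundant members the log2 differences were −0.14 and −0.10.

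Over all identifiers of at least 10 CPM, the CKO libraries of 10 min did not lie closer to Control libraries of 20 min than to those of 10 min. The median absolute log2 difference between a CKO library of 10 min and a Control library was 0.354 at 10 min and 0.364 at 20 min on average. The CKO libraries of 10 min were closest to those of CKO 20 min, at 0.311, apart from each other at 0.219. Control libraries of 10 min lay 0.203 from Control libraries of 20 min and 0.238 from CKO libraries of 20 min. These distances include the replicate spread, which was 0.177 in Control at 10 min and 0.0881 in CKO at 20 min. Its part in them was not tested.

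Gains and losses of share also differed with the identifier's number and with its version, the figure after the point. Identifiers numbered 50000 to 79999 held 20.5% and 20.2% in CKO, against 16.8% and 16.7% in Control. Those numbered 80000 to 99999 held 6.37% and 5.90% in CKO, against 8.74% and 8.91% in Control. Those numbered from 100000 held 1.56% and 1.45% in CKO, against 1.67% and 1.66% in Control. Among the 2840 tested of this last class, 233 were called lower in CKO (8.20%, background 11.9%) and 91 higher (3.20%, background 10.9%). The log2 difference in the share of this class was −0.15, and it was −0.0938 without the second CKO library. Identifiers below 50000 held 71.6% and 72.5% in CKO, against 72.8% and 72.7% in Control, with 1616 called higher (14.1%, background 10.9%) and 1597 lower (13.9%, background 11.9%). Without the 10 most abundant identifiers the log2 difference was 0.14 in place of 0.28 for numbers 50000 to 79999, and −0.02 in place of −0.53 for 80000 to 99999, so that the second rested on the most abundant identifiers. Identifiers still at version 1 held 7.32% and 6.51% in CKO, against 4.89% in both Control libraries. Of the 4587 tested, 141 were called higher (3.07%, background 10.9%) and 359 lower (7.83%, background 11.9%), so that calls in both directions were rarer than over all identifiers. The median log2 fold change was −0.25, and without the 10 most abundant identifiers the log2 difference in share was 0.08 in place of 0.50.

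The 4 named identifiers are those with the largest rises and falls among calls of at least 10 CPM whose libraries did not overlap between genotypes, a pattern that 23.5% of all identifiers tested showed with CKO higher and 25.9% with CKO lower, 49.4% in all. This choice fixed their calls, lack of overlap and large changes at 10 min, which are given as a description. ENSMUSG00000101111.1 and ENSMUSG00000096385.7 reached 10 CPM only through CKO, with Control means of 1.38 and 2.15 CPM. ENSMUSG00000054074.9 did so only through Control, with a CKO mean of 3.99 CPM. ENSMUSG00000101111.1 had 8.97 and 47.3 CPM in CKO at 10 min, against 1.18 and 1.58 CPM in Control. The CKO replicates differed widely, with 107 and 612 counts, against 16 and 24 counts in Control. Its log2 fold change was 4.34 (SE 1.03, edgeR adjusted p = 0.0144). It lost its call without either Control library of 10 min (edgeR adjusted p = 0.146 and 0.134) and was 2.70 without the second CKO library and 5.12 without the first. At 20 min it had 2.69 and 12 CPM in CKO, against 8.64 and 2.25 CPM in Control, where the groups overlapped.

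ENSMUSG00000096385.7 had 33.7 and 28.3 CPM in CKO at 10 min, against 1.32 and 2.97 CPM in Control. Its log2 fold change was 3.84 (SE 0.79, edgeR adjusted p = 0.00393). It lost its call without the first CKO library (edgeR adjusted p = 0.0552) or without the first Control library (edgeR adjusted p = 0.0751). At 20 min it had 6.11 and 4.43 CPM in CKO, against 0.432 and 0.697 CPM in Control, and at 60 min 0.102 and 3.71 CPM in CKO, against 5.14 and 4.90 CPM in Control. Its effect at 10 min did not pass the test against the mean effect at 20 and 60 min (difference of 2.91, SE 0.97, edgeR adjusted p = 0.0864).

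ENSMUSG00000054074.9 had 3.35 and 4.64 CPM in CKO at 10 min, against 27 and 26.5 CPM in Control. It was 6.67-fold lower in CKO, a log2 fold change of −2.74 (SE 0.22, edgeR adjusted p = 3.99e-07). It was also lower in CKO at 20 min, with 12.9 and 14 CPM, against 21.2 and 22.7 CPM in Control, though the log2 fold change of −0.71 missed the threshold (edgeR adjusted p = 0.0854). At 60 min it had 18.8 and 14.5 CPM in CKO, against 35.5 and 32.9 CPM in Control, a log2 fold change of −1.04 (edgeR adjusted p = 0.00412). The effect at 10 min lay below the mean of the later effects (log2 difference −1.86, SE 0.26, edgeR adjusted p = 0.000489).

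ENSMUSG00000022160.18 had 73.4 and 68.3 CPM in CKO at 10 min, against 453 and 434 CPM in Control. This was a 6.26-fold lower level in CKO, a log2 fold change of −2.65 (SE 0.10, edgeR adjusted p = 2.6e-11). The Control level was lower at 20 min, at 97.9 and 111 CPM, and at 60 min, at 57.6 and 63.5 CPM. It did not fall steadily with labelling time, as the Control libraries of 30 min had 381 and 399 CPM of total mouse counts. In CKO cells the level was 80.7 and 77.6 CPM at 20 min and 67.1 and 62.3 CPM at 60 min, close to its level at 10 min. The effect at 10 min differed from the mean of the later effects by −2.49 (SE 0.12, edgeR adjusted p = 1.11e-09). Its counts in the 30 min libraries were far higher in CKO, 8379 and 8869 CPM of total mouse counts, against 381 and 399 CPM in Control. ENSMUSG00000096385.7 likewise had 985 and 1004 CPM in CKO at 30 min, against 18.6 and 17.7 CPM in Control.

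**Figure D4:**
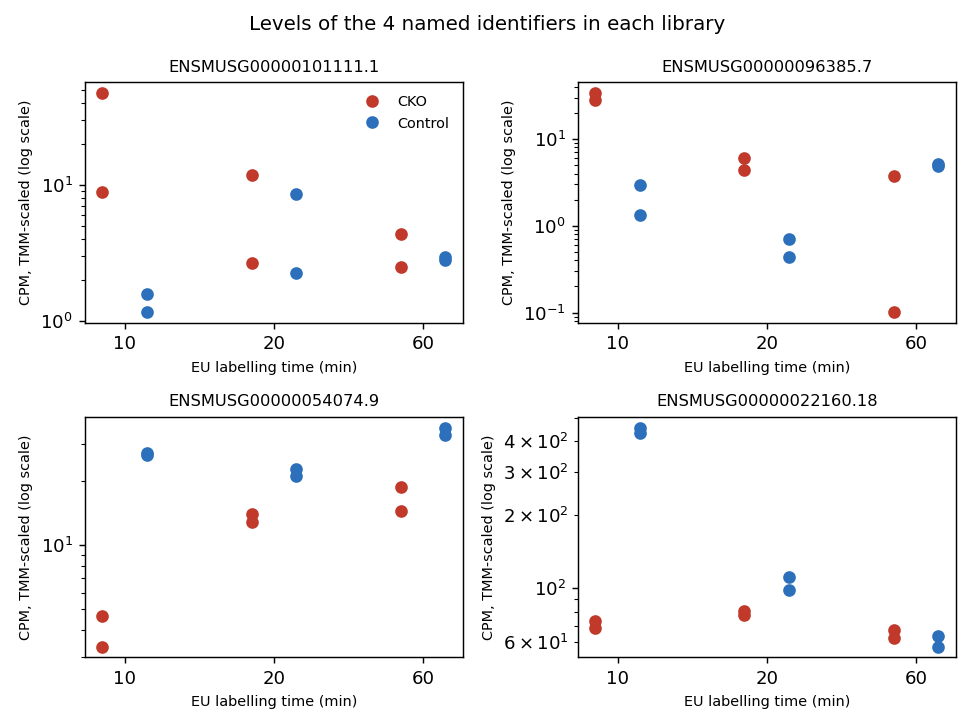
CPM after TMM scaling (log scale) of the 4 named identifiers in each library by EU labelling time in min, with CKO in red and Control in blue, 1 point per library. ENSMUSG00000022160.18 is high in the Control libraries of 10 min, at 453 and 434 CPM, and between 57.6 and 111 CPM in the other libraries shown.

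Levels per spike-in were higher in CKO for nearly all identifiers of at least 10 CPM at 10 min. Among these 9354, 9061 (96.9%) had both CKO libraries above both Control libraries per ERCC count, and 11 had both below. The median log2 difference was 1.34, with quartiles of 1.04 and 1.69. It was 1.31 for late-gaining and 1.18 for late-losing identifiers. With ERCC totals as library sizes, 13032 of 20204 identifiers (64.5%) were called higher in CKO and 197 (0.975%) lower (edgeR, Benjamini-Hochberg). ENSMUSG00000054074.9 and ENSMUSG00000022160.18 were lower in CKO also per spike-in, by 2.65-fold and 2.44-fold. All identifiers share the ERCC totals of the 4 libraries and are not independent replicates.

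Log2 fold changes at 10 min were more widely spread than at the later pulses and partly in the same direction. Across the 9354 identifiers of at least 10 CPM their interquartile range was 0.659 at 10 min, 0.306 at 20 min and 0.397 at 60 min, and the part of the larger replicate spread at 10 min in this was not tested. Of the 2197 identifiers called higher at 10 min, 1660 (75.6%) had a positive log2 fold change at 20 min and 1713 (78.0%) at 60 min, against 48.6% and 50.5% of all identifiers tested. Their median log2 fold change was 0.83 at 10 min, 0.17 at 20 min and 0.23 at 60 min. Of those called lower, 77.6% had a negative log2 fold change at 20 min and 69.2% at 60 min, against 51.4% and 49.4% of all identifiers tested, with medians of −0.72, −0.16 and −0.15 at 10, 20 and 60 min. The medians at 10 min come from the values that chose these identifiers and are larger for that reason as well. Of all identifiers tested, the fit of 12 libraries called 1.24% higher and 0.663% lower at 20 min (1.90% in all). At 60 min it called 3.04% higher and 1.90% lower (4.93% in all). Calls in the same direction numbered 172 at 20 min and 328 at 60 min among the first, and 107 and 209 among the second. Opposite calls numbered 1 and 5 among the first, and 4 and 60 among the second. The number of calls at the later pulses depended on the fit. The separate fit of the 8 libraries of 20 and 60 min, with 19154 identifiers tested, called 1663 higher and 1972 lower at 20 or 60 min. The part of the replicate spread at 10 min in this gap was not tested. Across the 9354 identifiers of at least 10 CPM, the log2 fold changes of 10 min had a Pearson correlation of 0.509 with those of 20 min and 0.447 with those of 60 min. Genes are not independent replicates, and the libraries of 1 pulse are shared by all of them.

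**Figure D5:**
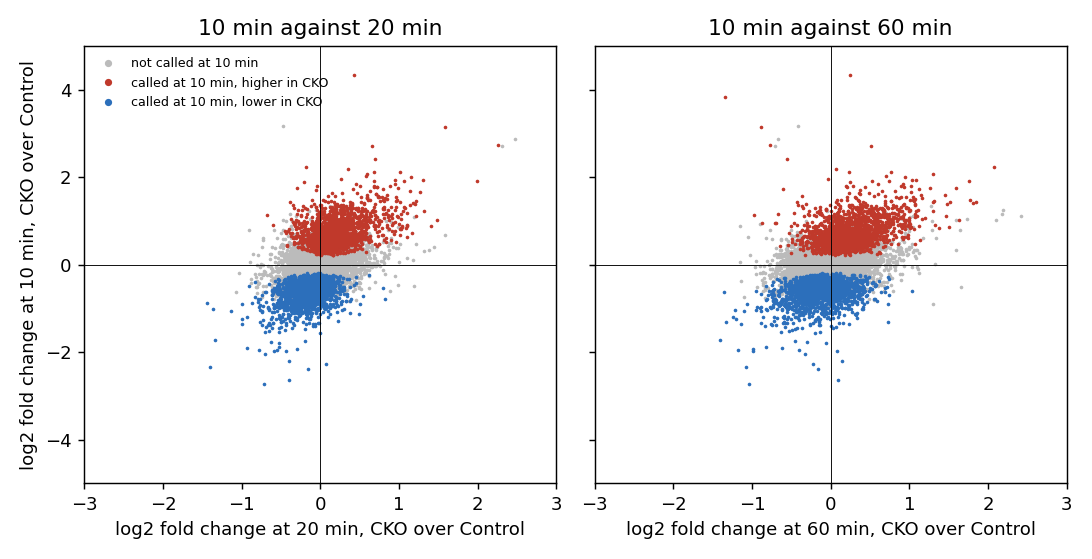
The log2 fold change of CKO over Control at 10 min (vertical axis) against that at 20 min (left) and 60 min (right) for 9354 identifiers of at least 10 CPM, coloured by the call at 10 min; 1 identifier lies outside the left panel. The called identifiers spread further along the vertical than along the horizontal axis.

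The difference between the effect at 10 min and the mean effect at 20 and 60 min was tested in the same fit. It was called for 1583 of 20204 identifiers (7.84%), 710 above the later effect (3.51%) and 873 below it (4.32%; edgeR, Benjamini-Hochberg). Without the second CKO library of 10 min the count was 2533, of 22464 tested. The 710 identifiers had median log2 fold changes of 0.86, 0.05 and 0.07 at 10, 20 and 60 min, and the 873 had −0.68, −0.04 and 0.07. The values at 10 min chose both sets and are given as a description. The CKO libraries of 10 min departed further from the later libraries of their own genotype than the Control libraries did in 518 of the 710 and in 730 of the 873, and in 11948 of all 20204. In the 710 the median departure was 0.69 in CKO and −0.08 in Control on the log2 scale, and in the 873 it was −0.68 in CKO and 0.11 in Control. ENSMUSG00000022160.18 went the other way, with the Control libraries of 10 min apart from those of 20 and 60 min.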

How the data were processed

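The deposited values are raw counts per Ensembl identifier and ERCC species. Per the submitters' processing notes the authors used CASAVA, Trimmomatic 0.38, HISAT2 2.1.0 and HTSeq with mm10; the sources used here name no annotation release, strand setting or counted feature, so overlapping, antisense and near-identical genes have uncertain counts. One label field says total RNA and another nascent polyA RNA, and the kit named is a stranded total RNA kit.

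Tests used edgeR 4.0.16 (R 4.3.3): TMM on mouse counts, its count filter by group, 6 group means over the 12 libraries of 10, 20 and 60 min, robust quasi-likelihood F-test, Benjamini-Hochberg over 20204 identifiers (99.9% of the mouse counts), threshold 0.05. Standard errors come from the F statistic. Rank, abundance, late-gaining and late-losing classes used the 8 libraries of 20 and 60 min. CPM of named identifiers are TMM-scaled; shares, ranks, distances and replicate spread use total mouse counts. DESeq2 1.42.0 was an alternative. Scripts were tested on simulated data.

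The comparison, classes and lists were chosen with earlier results of these data known. The naming rule took the largest rises and falls among calls of at least 10 CPM with no overlap between genotypes (1702 and 1731 eligible), of which 2 each are named because identifiers have no symbols; its other parts and all gene lists need symbols and were not used here. The number and version classes and the runs of numbers were added after the files had been seen.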

Additional observations from a re-analysis of the deposited data

Results flagged for a closer look

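The effect of the knockout differed between 10 min and the later pulses for 1583 identifiers by the test of the difference (edgeR, Benjamini-Hochberg). The replicate spread at 10 min, a median absolute log2 difference of 0.218 in CKO and 0.177 in Control, was larger than the 0.0669 to 0.144 in the other groups of this fit, and its part in the count was not tested. Among the named identifiers, ENSMUSG00000054074.9 differed by −1.86 and ENSMUSG00000022160.18 by −2.49 on the log2 scale, where a negative value means that the effect at 10 min lay below the mean of the later effects. For ENSMUSG00000022160.18 the CKO level at 10 min, 73.4 and 68.3 CPM, was close to that at 60 min, 67.1 and 62.3 CPM, and the Control level at 10 min, 453 and 434 CPM, stood apart. No group had the 4 or more libraries needed to test for single libraries that stand apart.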

How the results depend on the processing

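The number of identifiers called at 10 min was 4601. It was 1680 with the 4 libraries of 10 min alone and 13229 with ERCC scaling, which moved the median log2 fold change of all identifiers to 1.32 and turned 98.5% of the calls upward. All 16 libraries gave 3246 calls, 1474 of them lower. DESeq2 gave 5377, median-of-ratios size factors 4561, total mouse counts 4718, no count filter 4709 and the stricter filter 4283. Leaving out each library of 10 min gave 4035 to 4912. The share called higher was 42.9% to 58.8% under all of these but ERCC scaling. The test against 20 and 60 min gave 905 with all 16 libraries, 863 against 20 min alone, and 1585 to 2533 when each library of 10 min was left out, against 1583. With the replicate number as a block, 4280 were called at 10 min and 1445 in that test. The labels do not say what a number shares, and deviations of same-numbered libraries correlated between −0.0660 and 0.0288 over 15 pairs of groups, so the numbers were not taken as pairs. ENSMUSG00000101111.1 also lost its call without a count filter (edgeR adjusted p = 0.0859). The 2 named falls kept their calls under every setting. Output per spike-in ranged from 1.26 to 1.53 on the log2 scale. Without the 10 most abundant identifiers the log2 differences in share were −0.11 for the late-gaining class (−0.05 with them, and −0.0854 to −0.0097 when each library of 10 min was left out), −0.018 for the late-losing class (−0.22) and 0.37 for identifiers higher in CKO at 20 or 60 min (0.30). Without its most abundant member the late-losing class gave −0.068, ranks 2 to 10 gave 0.44 (0.23 with it), the identifiers higher at 20 or 60 min 0.36, and the most abundant class of 5 turned to 0.034, against −0.0061 with it. The cause was not tested. At 1 to 10 CPM the median absolute log2 difference between replicates of 10 min was 0.676 in CKO and 0.615 in Control, which limits what can be seen in rarer identifiers.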
